A study of Mus musculus with 2 samples.

Results

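Cholesterol synthesis was examined through 8 genes, the enzymes Hmgcs1, Idi1, Fdps, Fdft1, Sqle and Lss and the regulators Insig1 and Srebf2, out of 22886 genes in the deposited tables. The genes were chosen by symbol, and the levels of lines with the same symbol were summed. All 8 symbols were found, and 7 of the 8 genes reached the minimum set for a comparison, an average of 1 RPKM across the libraries. RPKM are reads scaled to transcript length and to library size, so levels can be set side by side between genes. The set was named for synthesis and uptake, but none of the 8 genes is an uptake receptor, and receptors were taken from a separate list.

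The series holds 2 RNA sequencing libraries. Both are labelled as aerobic tumor cells sorted from subcutaneous LLC tumors, a Lewis lung carcinoma line grown under the skin, of wild type C57BL/6 mice, 1 library after vehicle injection (Veh) and 1 after clodronate injection (Clod). Clodronate in liposomes is widely used to kill phagocytes. The labels give no age, number of mice or dose, the gate that defines aerobic cells is not given in the sources used here, and a growth protocol for a cultured line, EML, conflicts with the tumor labels. As each condition has 1 library, differences could not be set against a spread between replicates, no test was run, and the injection, the mouse, the sort and the library preparation cannot be told apart.

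Cells make cholesterol from acetyl-CoA. The early enzymes build mevalonate and the isoprenoid farnesyl diphosphate, squalene is then made and closed into the ring of lanosterol, and a last group of enzymes trims lanosterol to cholesterol. The transcription factor SREBP-2, encoded by Srebf2, switches on nearly the whole pathway when sterols in the endoplasmic reticulum are low, and INSIG proteins hold it back when sterols are plentiful. Macrophages take up much cholesterol from lipoproteins and dead cells, and so keep synthesis under this feedback.

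Macrophage transcripts were abundant in both libraries. All 12 macrophage markers passed the filter, with levels of at least 174 RPKM in the vehicle library, and Lyz2, which encodes lysozyme, had 10534 RPKM there and 11189 RPKM with clodronate. Of 6 epithelial markers, Epcam, Krt19 and Cldn4 were at 0 throughout and no other exceeded 6.44 RPKM, so the levels below describe sorted cells rich in macrophage RNA, and tumor cells were not looked for by markers of their own. In bulk RNA, fewer cells of a type and less RNA per cell cannot be told apart.

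The 7 genes differed between the libraries about as much as all genes did, and some were higher and some lower. On the log2 scale of RPKM + 1, the scale of every log2 ratio below, 4 were higher and 3 lower with clodronate, and the median log2 ratio was 0.07 against 0.02 for all 10982 genes that passed the filter. Of those 10982 genes, 5664 were higher and 5318 lower. None of the 7 was at least 2-fold higher or lower on this scale, where 13.7% of all genes were, and none was at least 3-fold away, where 5.18% were, 2.86% higher and 2.32% lower. Of the 7 genes 3 lay within 1.2-fold, compared with 35.7% of all genes. The median size of the difference, without its sign, was 0.36 for the 7 genes and 0.39 for all genes. Lss stood highest with 0.99 and Sqle lowest with -0.77. Corrected for the trends of the ratios with GC content and transcript length, the median of the 7 genes was -0.18 and Srebf2 turned from 0.07 to -0.20, while the other 6 genes kept their direction.

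**Figure D1:**
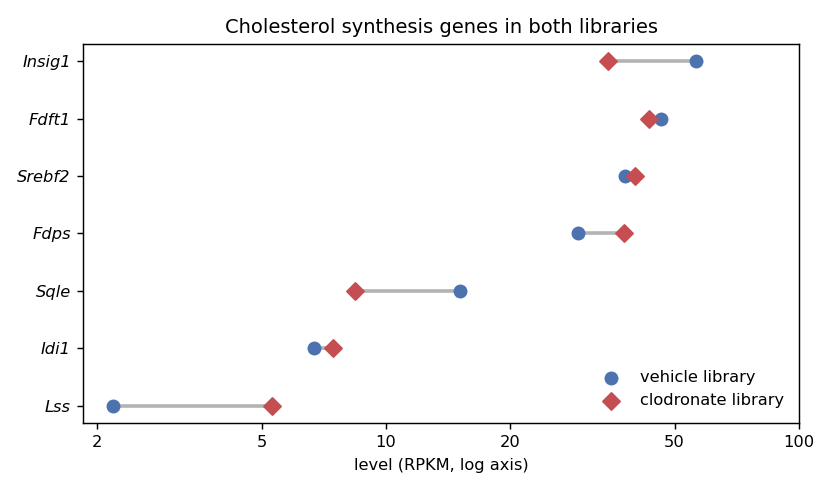
Level of each gene in RPKM on a log axis, with circles for the vehicle library, diamonds for the clodronate library and a line joining the pair, 1 library each and no error bars. Lss lies higher and Sqle and Insig1 lie lower in the clodronate library, whereas the points of Fdft1, Srebf2 and Idi1 nearly touch, and Hmgcs1, listed at 0 in both, is not drawn.

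The number of reads behind these levels was estimated, because the tables give none. Low levels multiplied by transcript length fell on steps. In the vehicle library 112 long transcripts lay within 10% of 0.0774 RPM, reads scaled to library size alone, and 65 near the double of it, with 7 in between, and in the clodronate library the step was 0.0954 with 158, 118 and 8 transcripts. If 1 step is 1 read, the 7 genes rest on about 131 to 2491 reads in the vehicle and 236 to 2131 reads in the clodronate library. The approximate 95% counting interval of the RPKM ratio excluded 1 for 5 of the 7 genes, against 75.2% of all 10639 genes with an estimate. These intervals cover counting error in 2 libraries only, and say nothing of how mice differ.

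Hmgcs1 encodes HMG-CoA synthase, which joins acetyl-CoA and acetoacetyl-CoA at the start of the pathway. It was listed at 0 RPKM in both libraries, and the value is not read as a lack of transcript. The tables place the gene, under the same RefSeq accession, at 2 loci of the unplaced chromosome 13 sequence of mm9, chr13_random:114709-132325 and chr13_random:308619-326235, and at no other. All 127 loci on unplaced sequences were listed at 0 in both libraries. Among the 431 loci that share their accession with another locus 97.0% were at 0 in both, compared with 37.3% of all loci. Hmgcs1 has no usable level here in either condition, and it enters no count or median of the 7 genes.

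Farnesyl diphosphate is built by Idi1 and Fdps. Idi1, isopentenyl-diphosphate isomerase, had 6.70 RPKM with vehicle and 7.44 RPKM with clodronate. Both values were close, with a ratio of 1.11 and a counting interval from 0.927 to 1.33. Fdps, farnesyl diphosphate synthase, had 29.2 RPKM with vehicle and 37.7 RPKM with clodronate, 1.29-fold higher. Its log2 ratio of 0.36 lay within the interquartile range of all genes, which ran from -0.38 to 0.40. Fdps stood 4.35 times above Idi1 in the vehicle library and 5.07 times above it in the clodronate library, so the order of these 2 enzymes was the same in both.

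Fdft1, squalene synthase, commits farnesyl diphosphate to sterols. It was the most abundant of the measured enzymes among the 8 genes, with 46.4 RPKM with vehicle and 43.3 RPKM with clodronate. The ratio of 0.933 had a counting interval from 0.875 to 0.994. Its locus in the tables, chr14:63741298-63796630 of mm9, is the same interval that the tables give for Ctsb, the gene of the lysosomal protease cathepsin B, which had 2573 and 2811 RPKM. Whether reads of so abundant a neighbour reached Fdft1 was not tested.

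The next steps differed in opposite directions. Sqle encodes squalene epoxidase, an oxygen-dependent and rate-limiting enzyme of the sterol branch, and had 15.1 RPKM with vehicle and 8.42 RPKM with clodronate. It was 1.79-fold lower with clodronate, with a counting interval from 1.54 to 2.10. Lss encodes lanosterol synthase, which closes the sterol ring on the product of Sqle, and had 2.18 RPKM with vehicle and 5.31 RPKM with clodronate. It was 2.44-fold higher, with a counting interval from 1.97 to 3.04, and fell just short of 2-fold on the scale with 1 RPKM added. Sqle exceeded Lss 6.93 times in the vehicle library but 1.59 times in the clodronate library. Of all genes, 22.1% differed at least as much as Sqle and 14.0% at least as much as Lss, in either direction. Lss was the least abundant of the 7 genes in both libraries, and the tables give its locus also for 4930483K19Rik, which was listed at 0.

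**Figure D2:**
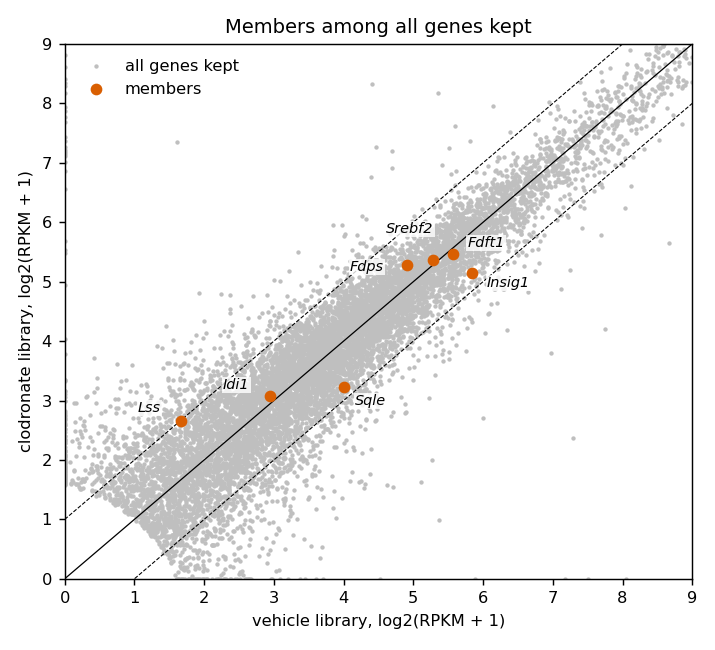
Each grey point is 1 gene that passed the filter, with its log2(RPKM + 1) in the vehicle library on the x axis and in the clodronate library on the y axis, both ended at 9. Orange points mark the 7 genes, the solid line is equality and the dashed lines mark 2-fold, and all 7 genes lie between the dashed lines, with Lss at the upper one.

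Insig1 encodes an endoplasmic reticulum protein that retains SREBP when sterols are plentiful, and its own transcription is driven by SREBP. It was the most abundant of the 7 measured genes with vehicle, where it had 56.5 RPKM, against 34.5 RPKM with clodronate. It was 1.64-fold lower there, with a counting interval from 1.52 to 1.77, and 25.9% of all genes differed at least as much in either direction. Among the 5913 genes with an average of at least 10 RPKM, the lower quartile was -0.30 and the 5th percentile -0.88. Sqle at -0.77 and Insig1 at -0.70 lay between these values. In the vehicle library Insig1 ranked in the top 12.8% of the genes that passed, compared with the top 21.2% in the clodronate library. Its relative Insig2, which performs the same task but is not driven by SREBP in most cells, had 7.16 and 6.63 RPKM, so that Insig1 stood 7.89 times above Insig2 in the vehicle and 5.20 times above it in the clodronate library.

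Srebf2 had 38.0 RPKM with vehicle and 40.0 RPKM with clodronate, the smallest difference among the 7 genes. The ratio of 1.05 had a counting interval from 0.994 to 1.12. Srebf1, which encodes the form of SREBP that favours fatty acid synthesis, had 11.9 and 22.2 RPKM, and Srebf2 exceeded it 3.19 times in the vehicle but 1.81 times in the clodronate library. The locus of Srebf1 in the tables is shared with Rai1, which had 6.42 RPKM with clodronate, and that of Srebf2 with Mir33, a microRNA of sterol efflux listed at 0. SREBP activity is set by cleavage of the protein, which transcript levels do not show.

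Promoters were examined because these genes are known as joint targets of SREBP-2. RefSeq promoters of GRCm38.p6, a later build than the mm9 of the tables, were given for 5 of the 8 genes, Hmgcs1, Idi1, Lss, Insig1 and Srebf2, and the 250 bases before the transcript start were searched on both strands. The motif TCACNCCAC, a form of the sterol regulatory element, was found in 1 of the 5 promoters, that of Hmgcs1, and in 1.05% of all 32851 promoters of the same length. Its first 8 letters, TCACNCCA, a shorter form chosen after the sequences were seen, were found in Hmgcs1 and Srebf2 and in 3.67% of all promoters. CCAAT, the motif of NF-Y, a partner of SREBP, was found in all 5 and in 33.8% of all promoters, and GGGCGG, the motif of Sp1, in all 5 and in 32.7%. The 4 sequences shown are those of the gene with the longer motif, of both regulators, and of Lss, the gene with the largest difference. All lie on the plus strand, and capitals mark matches to TCACNCCA, TCACNCCAC or CCAAT, the last read as ATTGG on the other strand.
Hmgcs1, chr13:119690101-119690350: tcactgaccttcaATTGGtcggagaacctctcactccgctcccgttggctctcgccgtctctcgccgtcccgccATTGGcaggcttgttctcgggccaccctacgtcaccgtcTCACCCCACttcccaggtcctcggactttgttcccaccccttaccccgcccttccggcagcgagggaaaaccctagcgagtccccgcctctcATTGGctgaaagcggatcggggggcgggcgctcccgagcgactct
Srebf2, chr15:82147019-82147268: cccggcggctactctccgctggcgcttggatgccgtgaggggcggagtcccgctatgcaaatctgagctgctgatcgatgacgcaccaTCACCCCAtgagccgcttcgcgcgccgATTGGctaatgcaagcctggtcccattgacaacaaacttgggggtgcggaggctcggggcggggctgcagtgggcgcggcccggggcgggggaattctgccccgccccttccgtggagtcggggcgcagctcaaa
Insig1, chr5:28071162-28071411: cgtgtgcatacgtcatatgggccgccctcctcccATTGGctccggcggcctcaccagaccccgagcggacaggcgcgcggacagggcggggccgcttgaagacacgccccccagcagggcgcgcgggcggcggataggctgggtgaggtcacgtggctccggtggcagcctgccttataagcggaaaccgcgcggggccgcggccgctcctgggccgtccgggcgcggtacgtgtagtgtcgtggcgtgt
Lss, chr10:76531355-76531604: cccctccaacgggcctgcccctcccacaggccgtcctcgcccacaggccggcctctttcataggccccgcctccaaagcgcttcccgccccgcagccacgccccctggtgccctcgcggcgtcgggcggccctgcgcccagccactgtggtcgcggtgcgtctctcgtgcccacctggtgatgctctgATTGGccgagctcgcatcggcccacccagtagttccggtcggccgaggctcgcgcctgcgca
The sterol element match of Hmgcs1 starts 137 bases before the transcript start and that of Srebf2 162 bases before it. Hmgcs1 carries CCAAT matches at 3 positions, Srebf2, Insig1 and Lss at 1 each.

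The rest of the pathway was taken from lists drawn up by function. Acat2, Mvk, Pmvk and Mvd of the mevalonate part were listed with Ggps1, which uses farnesyl diphosphate for isoprenoids other than sterols. Of these 5 enzymes 2 were higher and 3 lower with clodronate, beside 5664 higher and 5318 lower of all genes. None of the 5 reached 2-fold with 1 RPKM added, where 13.7% of all genes did. Mvk, mevalonate kinase, had 5.38 and 8.92 RPKM, and Acat2, the cytosolic thiolase that makes acetoacetyl-CoA, had 3.49 and 2.14 RPKM. Pmvk, Mvd and Ggps1 had log2 ratios between -0.09 and 0.05. The median of the 5 was -0.04, the value of Ggps1.

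The enzymes after lanosterol held the widest differences of the pathway. Of 10 such enzymes 9 were found under their symbols, all 9 passed the filter, and 2 of them were at least 2-fold lower, compared with 6.77% of all genes, while none was at least 2-fold higher with 1 RPKM added, compared with 6.95%. Msmo1, an oxidase that acts in the removal of sterol methyl groups, had 72.3 RPKM with vehicle and 24.0 RPKM with clodronate. It was thus the most abundant of the sterol synthesis enzymes with a usable level in the vehicle library, and 3.01-fold lower with clodronate, with a counting interval from 2.73 to 3.33. Hsd17b7, the ketoreductase of the same reaction sequence, had 4.28 and 1.02 RPKM, 4.21-fold lower, on about 255 and 49 reads. Nsdhl, the decarboxylase that acts between them, had 25.3 and 14.8 RPKM, 1.71-fold lower and with a log2 ratio of -0.73. These 3 enzymes work in 1 reaction sequence, and the grouping was made after their values were seen.

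Several late steps were nearly level. Ebp, Sc5d and Dhcr7, which shift, add and remove double bonds of the sterol, had log2 ratios between 0.03 and 0.06. Ebp, the sterol isomerase, had 41.1 and 43.1 RPKM, and Dhcr7, a sterol reductase, had 12.3 and 12.6 RPKM. Cyp51, which removes the first methyl group of lanosterol, had 12.03 and 8.68 RPKM. Lbr, a sterol reductase that is also a protein of the nuclear envelope, ran the other way with 5.22 and 11.1 RPKM, a log2 ratio of 0.96. The summed level of these 9 enzymes was 190 RPKM with vehicle and 134 RPKM with clodronate, whereas their median log2 ratio was 0.03, so that the sum and the median differed in sign.

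**Figure D3:**
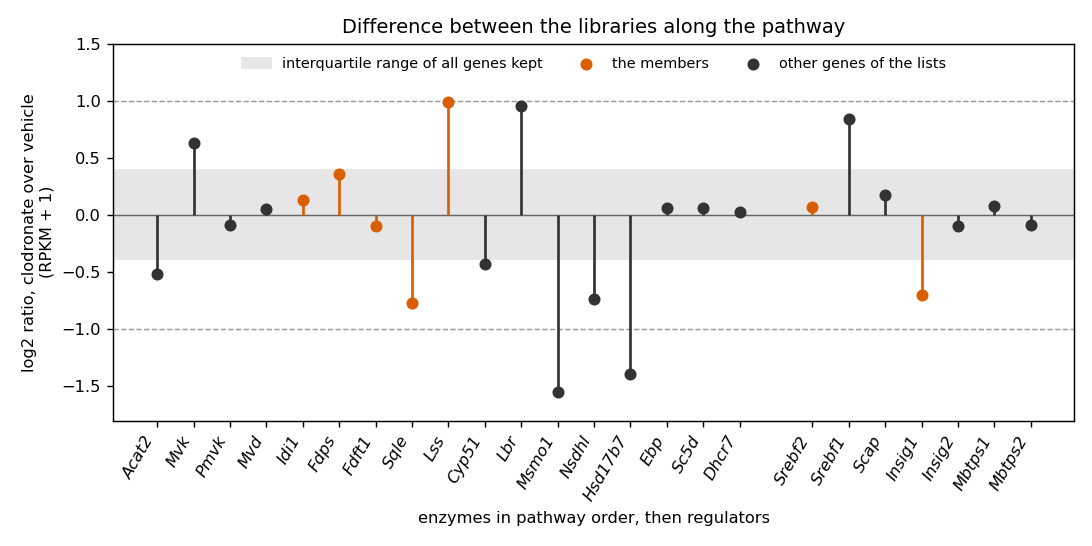
Log2 ratio of clodronate over vehicle RPKM + 1 for enzymes in the order of the pathway and then for regulators, with the examined genes in orange and other genes in black. The grey band is the interquartile range of all genes, from -0.38 to 0.40, dashed lines mark 2-fold, and only Msmo1 and Hsd17b7 pass a dashed line.

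Among 10 genes listed as other regulators 6 were higher and 4 lower, beside 5664 higher and 5318 lower of all genes. Their median log2 ratio was 0.09, against 0.02 for all genes. None reached 2-fold with 1 RPKM added, where 13.7% of all genes did. Scap, the escort of SREBP, had 9.81 and 11.3 RPKM, and the proteases that cleave SREBP in the Golgi, Mbtps1 and Mbtps2, had log2 ratios of 0.08 and -0.09. Mbtps2 shares its locus with Yy2, which had 1.72 RPKM with vehicle and 5.81 RPKM with clodronate. Rnf139, which encodes a ubiquitin ligase tied to INSIG, had a log2 ratio of -0.26. Ubxn8 was lowest with 5.58 and 2.31 RPKM, a log2 ratio of -0.99, and shares its locus with Ppp2cb, which had 23.2 and 14.2 RPKM. The place of Ubxn8 in this list is doubtful, as no role in sterol synthesis is shown here. The counts and the median above include it. On the RPKM scale Ubxn8 was 2.41-fold lower, with a counting interval from 1.82 to 3.22.

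Uptake was read from a list of 12 genes of sterol uptake and transport, of which 11 passed the filter. Of these 8 were higher and 3 lower with clodronate, beside 5664 higher and 5318 lower of all genes. The median log2 ratio was 0.18, or 0.076 once corrected for GC content and length. None reached 2-fold with 1 RPKM added, where 13.7% of all genes did. The scavenger receptors differed widely in level. Msr1, which takes up modified lipoproteins, had 295 and 365 RPKM, Cd36 had 71.9 and 81.7 RPKM, and Scarb1, the receptor of high-density lipoprotein, had 30.1 and 30.2 RPKM. Lrp1, an endocytic receptor of apolipoprotein E, had 225 and 386 RPKM, a ratio of 1.72 on the RPKM scale. Mylip, a ubiquitin ligase that degrades lipoprotein receptors and is induced by liver X receptors, had 13.3 and 26.3 RPKM, with a log2 ratio of 0.94. Vldlr had 0.0111 RPKM with clodronate and was listed at 0 with vehicle.

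After uptake, cholesterol is freed in lysosomes and esterified for storage. Lipa, lysosomal acid lipase, had 93.8 and 69.8 RPKM, and Npc2, which carries cholesterol inside lysosomes, had 168 and 167 RPKM. Soat1, which esterifies cholesterol in macrophages, had 66.5 and 47.7 RPKM, a log2 ratio of -0.47. The 3 genes that were lower in the clodronate library were Lipa, Npc2 and Soat1.

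Liver X receptors sense oxysterols and drive cholesterol efflux, in balance with SREBP-2. Of 6 genes of this axis, 5 had log2 ratios between -0.08 and 0.18. Nr1h3 and Nr1h2, the receptors, had 27.2 and 31.0 RPKM and 52.7 and 57.3 RPKM, and their efflux targets Abca1 and Abcg1 had 120 and 114 RPKM and 18.9 and 20.7 RPKM. Ch25h stood apart. It encodes an interferon-induced hydroxylase that makes an oxysterol bound by INSIG proteins, and it had 5.49 RPKM with vehicle and 26.2 RPKM with clodronate. It was 4.76-fold higher, with a counting interval from 3.82 to 6.03, on about 98 and 380 reads, and was the only gene of the 6 past 3-fold, where 2.86% of all genes were.

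Other gene lists differed between the same libraries, in which 5664 of all genes were higher with clodronate and 5318 lower. Of 10 interferon response genes 9 were higher in the clodronate library and 6 at least 2-fold, compared with 6.95% of all genes, with summed levels of 150 and 390 RPKM. Of 12 proliferation genes 11 were higher and 7 at least 2-fold, beside the same 6.95% of all genes, with summed levels of 256 and 379 RPKM. The 12 macrophage markers had summed levels of 28044 and 26325 RPKM, with 7 higher and 5 lower. Of 8 fibroblast markers 6 passed the filter, and 5 of these were lower, with summed levels of 156 and 75.4 RPKM. Of 5 endothelial markers, Tek and Emcn were at 0 in both libraries and the summed levels were 2.37 and 7.40 RPKM. Fibroblasts make cholesterol as well, and the part of these lists in the levels of Sqle, Insig1, Msmo1 and Lss was not tested.

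**Figure D4:**
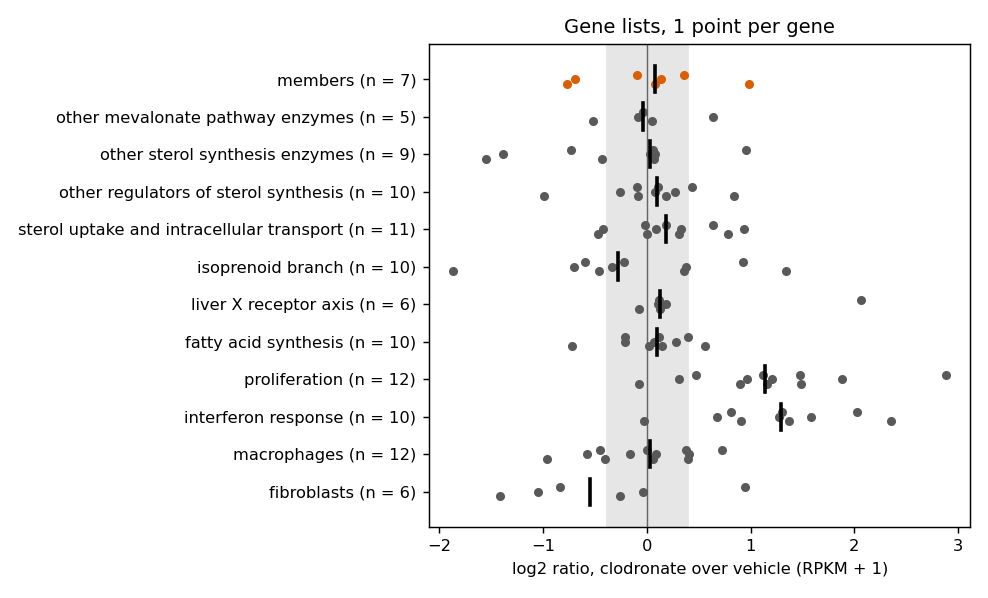
Log2 ratio of clodronate over vehicle RPKM + 1, with 1 point for each gene that passed the filter and a black bar at the median of each list, next to the interquartile range of all genes in grey. The 8 pathway lists, which include fatty acid synthesis and the isoprenoid branch, have medians from -0.28 to 0.18, whereas the proliferation and interferon response lists centre at 1.14 and 1.29.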

How the data were processed

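The authors deposited RPKM values for 23170 loci in each of 2 libraries. The submitters' processing notes name CASAVA 1.8.2, TopHat2 2.0.9, Bowtie 0.12.9, Cufflinks 2.2.1, Cuffdiff and the build mm9, with no roles. Since RPKM were deposited, no test for counts was run. In 26 loci a number stood in place of the symbol, and the RefSeq accession served instead. Lines of 1 symbol were summed. Before the log2 ratio of clodronate to vehicle was taken, 1 RPKM was added to each level, so differences of weakly expressed genes come out too small. Genes were kept from an average of 1 RPKM. Reads were estimated as RPKM times the length of GENCODE M21 transcripts over the worth of 1 read, found among transcripts longer than 2000 bases, and give exact binomial 95% intervals of the ratio. Overlapping loci are reported as shared, since the counting is not stated to use strand.

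The genes and the lists, 8 of pathways (the genes themselves included) and 9 of cell types or states, were chosen with earlier results of these data known. Any of their genes could be named. Alternatives were another pseudocount, other filters, centring, scaling to 1 upper quartile, the highest line of each symbol, a correction in 10 bins of GC content and of length and, added after seeing the data, no pseudocount. Values of some of these genes are not reported here. Tm7sf2 and Ly6g were found under no symbol, and Adgre1 was found as Emr1. The steps were tested on simulated data. Python 3.11.15, numpy 2.4.6, pandas 2.3.3, scipy 1.17.1 and matplotlib 3.10.9 were used.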

Additional observations from a re-analysis of the deposited data

How the results depend on the processing

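No paired analysis was possible because there is 1 library for each injection, and none could be left out. Depth was only estimated, and the pseudocount weighs on weakly expressed genes such as Lss. A median was taken as moved at a change of 0.1 or more on the log2 scale. With a pseudocount of 0.1, and also with none, 1 of the 7 cholesterol genes, Lss, was at least 2-fold higher (log2 ratio 1.25 and 1.28), in place of 0. In both settings 1 other sterol enzyme was at least 2-fold higher and 2 were lower by 3-fold or more. Ubxn8, from the list of other regulators, and 1 fatty acid synthesis gene were at least 2-fold lower. In the isoprenoid branch 2 genes were at least 2-fold and 1 at least 3-fold higher. Such counts rose over all genes too. At least 2-fold higher were 1032 genes and lower 1036 with 0.1, and 940 and 1002 with none, in place of 763 and 744. At 3-fold or more, 532 were higher and 480 lower with 0.1, in place of 314 and 255, and 437 were lower with none. With an average of 5 RPKM or more, which leaves fewer genes, 1 other sterol enzyme was at least 2-fold lower, the isoprenoid branch had 0 genes past 2-fold, and over all genes 346 were higher and 356 lower by 2-fold or more, and 127 and 101 by 3-fold or more. Centring put Ubxn8, from the list of other regulators, at least 2-fold lower. Scaling to the same upper quartile did so too and put 1 other sterol enzyme at least 3-fold lower. Median log2 ratios rose with GC content, from -0.24 in the lowest of 10 bins to 0.29 in the highest. Once corrected for GC content and length, the median was -0.18 for the cholesterol genes, -0.19 for the other sterol enzymes, of which 1 was at least 2-fold higher, 0.076 for uptake and transport and -0.011 for fatty acid synthesis, and Lss, Idi1 and Srebf2 stood at 0.86, 0.33 and -0.20. Across all settings Sqle stayed between -0.84 and -0.76, Insig1 between -0.76 and -0.64 and Fdps between 0.30 and 0.42. The cause of the changes under the correction was not tested.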

Other observations

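Farnesyl diphosphate also feeds isoprenoids other than sterols. Of 10 genes of this branch 4 were higher and 6 lower with clodronate, beside 5664 higher and 5318 lower of all genes. The median log2 ratio was -0.28, against 0.02 for all genes. With 1 RPKM added 1 gene, Fntb, was at least 2-fold higher, beside 6.95% of all genes. Another, Pdss2, was at least 3-fold lower, beside 2.32% of all genes. Pdss2, a subunit of the enzyme that makes the side chain of coenzyme Q, had 3.58 RPKM with vehicle and 0.258 RPKM with clodronate, on about 83 and 5 reads, and its partner Pdss1 had 3.55 and 2.30 RPKM, at a locus shared with the abundant gene Abi1. Fntb, the beta subunit of protein farnesyltransferase, had 1.26 and 4.71 RPKM, whereas Fnta, the alpha subunit that farnesyltransferase shares with another prenyltransferase, had 31.5 and 20.5 RPKM, so that the levels of the subunits of 1 enzyme differed in opposite directions.

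Fatty acid synthesis, which SREBP also drives, was read from 10 genes. Of these 7 were higher and 3 lower, beside 5664 higher and 5318 lower of all genes. Their median log2 ratio was 0.09, against 0.02 for all genes. Without its sign, the median difference was 0.21, against 0.39 for all genes. None reached 2-fold with 1 RPKM added, where 13.7% of all genes did. Fasn, fatty acid synthase, had 4.67 and 7.38 RPKM, Acly, which supplies acetyl-CoA, had 39.1 and 51.7 RPKM, and Scd1 had 2.69 and 2.88 RPKM, beside Scd2, the other desaturase, with 40.5 and 34.7 RPKM. Acss2 was lowest, with 1.55 and 0.541 RPKM, which is 2.86-fold lower on the RPKM scale, with a counting interval from 1.59 to 5.07. Of 5 neutrophil markers 4 were found. S100a8 had 12.7 and 23.1 RPKM and Csf3r had 26.4 and 19.3 RPKM, whereas S100a9 and Retnlg were at 0 in both libraries. Of 6 T and NK cell markers 1, Cd4, passed the filter, and of 6 blood progenitor markers 4 passed, with summed levels of 6.81 and 4.93 RPKM.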
